A study of Rattus norvegicus with 60 samples.

Results

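The renin-angiotensin system genes described here are 8 genes, found as the rows of the deposited gene table whose name is Agt, Ace, Agtr1a, Agtr1b, Mme, Enpep, Atp6ap2 or Mas1, out of 32545 genes in all. They were followed in poly(A) RNA from the kidneys of Dahl salt-sensitive rats, taken from cortex and from outer medulla. This is a strain that becomes hypertensive on salt. Rats of a derived NADPH oxidase 4 knockout line (NOX4) were compared with wild-type Dahl salt-sensitive rats (SS), each under control conditions (LS) and after 7 days (HS7) or 21 days (HS21) of a diet with 4.0% NaCl. Strain, diet and tissue made 12 groups with 5 libraries each, 60 in all, and NOX4 rats share the salt-sensitive background with SS rats. The labels state neither how the Nox4 gene was altered, nor sex or age, nor whether libraries of a group came from separate rats. P-values therefore measure the spread between these libraries, which may be technical.

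The renin-angiotensin system cuts angiotensinogen, the protein made from Agt, first to angiotensin I and then with angiotensin-converting enzyme, the product of Ace, to angiotensin II. Angiotensin II acts on the type 1 receptors, which in rats come from the related genes Agtr1a and Agtr1b, to constrict vessels and to keep sodium in the body. Neprilysin (Mme) and aminopeptidase A (Enpep) are membrane peptidases of the proximal tubule brush border that cut angiotensins further. Atp6ap2 encodes the (pro)renin receptor, which is also an accessory subunit of the vacuolar proton pump, and Mas1 encodes a receptor for angiotensin 1-7. The kidney holds all of these parts, and proximal tubule cells of segment 3, in the outer stripe, are a known site of Agt transcription in rodents.

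In the coordinates of the deposited table, whose genome build is not given in the sources used here, the members lie as follows. Agt (ENSRNOG00000018445) is on chromosome 19 at 57321640 to 57333433 and Ace (ENSRNOG00000007467) on chromosome 10 at 94170789 to 94206535. Mme (ENSRNOG00000009514) and Enpep (ENSRNOG00000051854) are on chromosome 2, at 153803349 to 153880738 and 233667254 to 233743866. Agtr1a (ENSRNOG00000018346) is on chromosome 17 at 35907108 to 35958077 and Agtr1b (ENSRNOG00000010640) on chromosome 2 at 105149020 to 105224295. Atp6ap2 (ENSRNOG00000003858) is on chromosome X at 11136939 to 11164915, and Mas1 (ENSRNOG00000014971) on chromosome 1 at 48077033 to 48108216. Ace, Mme and Mas1 are on the plus strand and the others on the minus strand (Mme overlaps a U6 RNA gene on the other strand).

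Library totals ran from 11.5 to 29.6 M counts. The targeted gene Nox4 had 61.9 to 87.5 CPM (counts per M counts, scaled between libraries by TMM) in NOX4 cortex, against 282 to 603 CPM in SS cortex. In outer medulla Nox4 had 1.64 to 13.6 CPM in NOX4 libraries and 5.42 to 101 CPM in SS libraries. The targeted gene was lower in the NOX4 libraries of both tissues (-2.41 ± 0.09 and -1.68 ± 0.35 on the log2 scale, averaged over diets), although in outer medulla its values of -0.94 ± 0.60 at LS and -1.47 ± 0.60 at HS21 were not called (edgeR, adjusted p = 0.293 and 0.208). In 11 libraries, 5 from cortex and 6 from outer medulla, all SS at LS or HS7, at least 10 genes with a median of 2 to 5 CPM in the tissue had no count, and these are called low-complexity libraries. Library names number every SS library before every NOX4 library, and the labels do not say what the numbers stand for. SS HS7 outer medulla replicate 3 correlated best with a cortex library (SS LS replicate 1, Pearson's r = 0.924 over genes), above the median of 0.778 with its own group. It and NOX4 HS7 outer medulla replicate 2 had scores (mean log2 CPM) of 8.03 and 8.05 for markers of proximal tubule segments 1 and 2, where the other outer medulla libraries had 1.97 to 6.11. NOX4 HS7 cortex replicates 3 and 4 have library names out of the order of the others. Some results in these groups are given below also without those libraries, and not every call that this changed is listed.

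Compared per length, on the deposited FPKM scale (fragments per kilobase of gene and per M fragments), the members of cortex ran from Atp6ap2 at 99.3 ± 7.29 FPKM to Mas1 at 0.211 ± 0.152 FPKM (SD, n = 30). Between them stood Enpep with 72.5 ± 10.7, Mme with 67.1 ± 46.0, Agtr1a with 27.5 ± 4.92, Agt with 19.4 ± 15.7, Agtr1b with 2.15 ± 0.528 and Ace with 1.05 ± 0.421 FPKM. Enpep and Mme, Mme and Agtr1a, and Agtr1a and Agt are neighbours whose levels lie within the wider SD of each pair, while Atp6ap2, Agtr1b, Ace and Mas1 stood farther from their neighbours than their own SD. In outer medulla the order was Mme (95.9 ± 44.3), Atp6ap2 (91.3 ± 11.2), Agt (32.4 ± 21.4), Agtr1a (30.8 ± 10.7), Enpep (18.5 ± 14.96), Agtr1b (3.02 ± 1.49), Ace (2.23 ± 0.881) and Mas1 (0.0469 ± 0.0623 FPKM). There Mme and Atp6ap2 could not be separated by their spread, nor could Agt, Agtr1a and Enpep, nor Agtr1b and Ace.

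The knockout comparison showed lower precursor and peptidase transcripts in cortex and lower receptor transcripts, with more Agt, in outer medulla. Averaged over the 3 diets, Agt, Ace, Mme and Enpep fell in NOX4 cortex, 4 of 8 members, where 31.7% of the 15179 genes tested were called at an adjusted p under 0.05 (edgeR's quasi-likelihood test with Benjamini-Hochberg adjustment) and 15% of those tested were called lower. The members' median log2 fold change was -0.17, beside 0.00 for all genes. In NOX4 outer medulla Agt rose and Agtr1a and Agtr1b fell, 3 of 7 members tested, against 30.4% of 15799 genes tested called, 15.4% of those tested being higher and 15.1% lower. There the median of the members was -0.05, beside -0.02 for all genes. Neither count stands far above its background, so what follows is about the single genes.

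Agt, the only known source of angiotensins, moved in opposite directions in the 2 tissues. In cortex at LS it had 47.4, 10.4, 12.8, 15.2 and 21.3 CPM in NOX4 libraries, against 80.9, 98.4, 101, 81.1 and 55.6 CPM in SS libraries. At HS7 NOX4 cortex had 10.3, 19.03, 12.6, 18.0 and 13.8 CPM, against 98.0, 67.0, 19.8, 14.6 and 17.5 CPM in SS cortex. At HS21 NOX4 cortex had 9.43, 19.3, 12.3, 32.4 and 17.1 CPM, against 66.5, 78.1, 31.2, 46.2 and 18.5 CPM in SS cortex. The strains did not overlap at LS and overlapped at HS7 and HS21, and at HS7 SS cortex split into 2 high and 3 low libraries. The averaged log2 fold change was -1.64 ± 0.27 (SE, adjusted p = 3.85e-05), with 15 of 15 NOX4 libraries under the SS mean and the NOX4 level at 32.0% of SS. At single diets Agt fell at LS (-1.97 ± 0.46, adjusted p = 0.00320) and at HS7 (-1.55 ± 0.47, adjusted p = 0.0225), and it had -1.41 ± 0.46 at HS21 (adjusted p = 0.160). Those 2 diets called 22% and 17.4% of all genes, HS21 1%. The HS7 call was lost without any of SS HS7 cortex replicate 1 (-0.996, adjusted p = 0.136), SS HS7 replicate 2 (-1.34, adjusted p = 0.0735), NOX4 HS7 replicate 1 (-1.44, adjusted p = 0.0542) or NOX4 HS7 replicate 3 (-1.5003, adjusted p = 0.0536), and without the low-complexity libraries (-1.22 ± 0.50, adjusted p = 0.0863) or NOX4 HS7 replicates 3 and 4 together (-1.59 ± 0.57, adjusted p = 0.0852). With the compared groups alone none of Agt (-1.55, adjusted p = 0.102), Mme (-1.38, adjusted p = 0.0847) and Enpep (-0.40, adjusted p = 0.0713) was called at HS7 in cortex. limma voom gave -0.78 ± 0.57 at HS7 (adjusted p = 0.426) and -1.52 ± 0.34 at HS21 (adjusted p = 0.00341).

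In outer medulla at LS Agt had 45.0, 82.9, 145, 87.9 and 45.4 CPM in NOX4 libraries, against 25.9, 30.1, 10.5, 12.4 and 26.0 CPM in SS libraries. At HS7 NOX4 outer medulla had 79.1, 81.7, 91.4, 82.4 and 127 CPM, against 10.6, 12.5, 154, 72.9 and 38.4 CPM in SS outer medulla. At HS21 NOX4 outer medulla had 101, 76.6, 123, 96.8 and 42.5 CPM, against 27.4, 11.5, 15.3, 59.8 and 74.4 CPM in SS outer medulla. Every NOX4 library lay above every SS library at LS, and the highest SS value of all was that of HS7 replicate 3, the library nearest to cortex. The averaged log2 fold change was 1.28 ± 0.32 (edgeR, adjusted p = 0.00362), with 15 of 15 NOX4 libraries above the SS mean. Agt rose at LS (1.93 ± 0.56, adjusted p = 0.0227, where 14.8% of all genes were called) and had 0.68 ± 0.54 at HS7 and 1.22 ± 0.55 at HS21, neither called by edgeR. limma voom called both, with 1.71 ± 0.52 at HS7 (adjusted p = 0.0275) and 1.80 ± 0.31 at HS21 (adjusted p = 3.33e-05). The LS call was lost without SS LS replicate 3 (1.76, adjusted p = 0.0591), SS LS replicate 4 (1.79, adjusted p = 0.0547) or NOX4 LS replicate 3 (1.61, adjusted p = 0.0740). At HS7 leaving out SS replicate 3 gave 1.44 (adjusted p = 0.0491). The difference between the tissues in the strain effect was itself called, 2.93 ± 0.43 on the log2 scale (outer medulla minus cortex, adjusted p = 5.75e-06), in a comparison that called 3 of 8 members and 11% of 16326 genes.

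**Figure D1:**
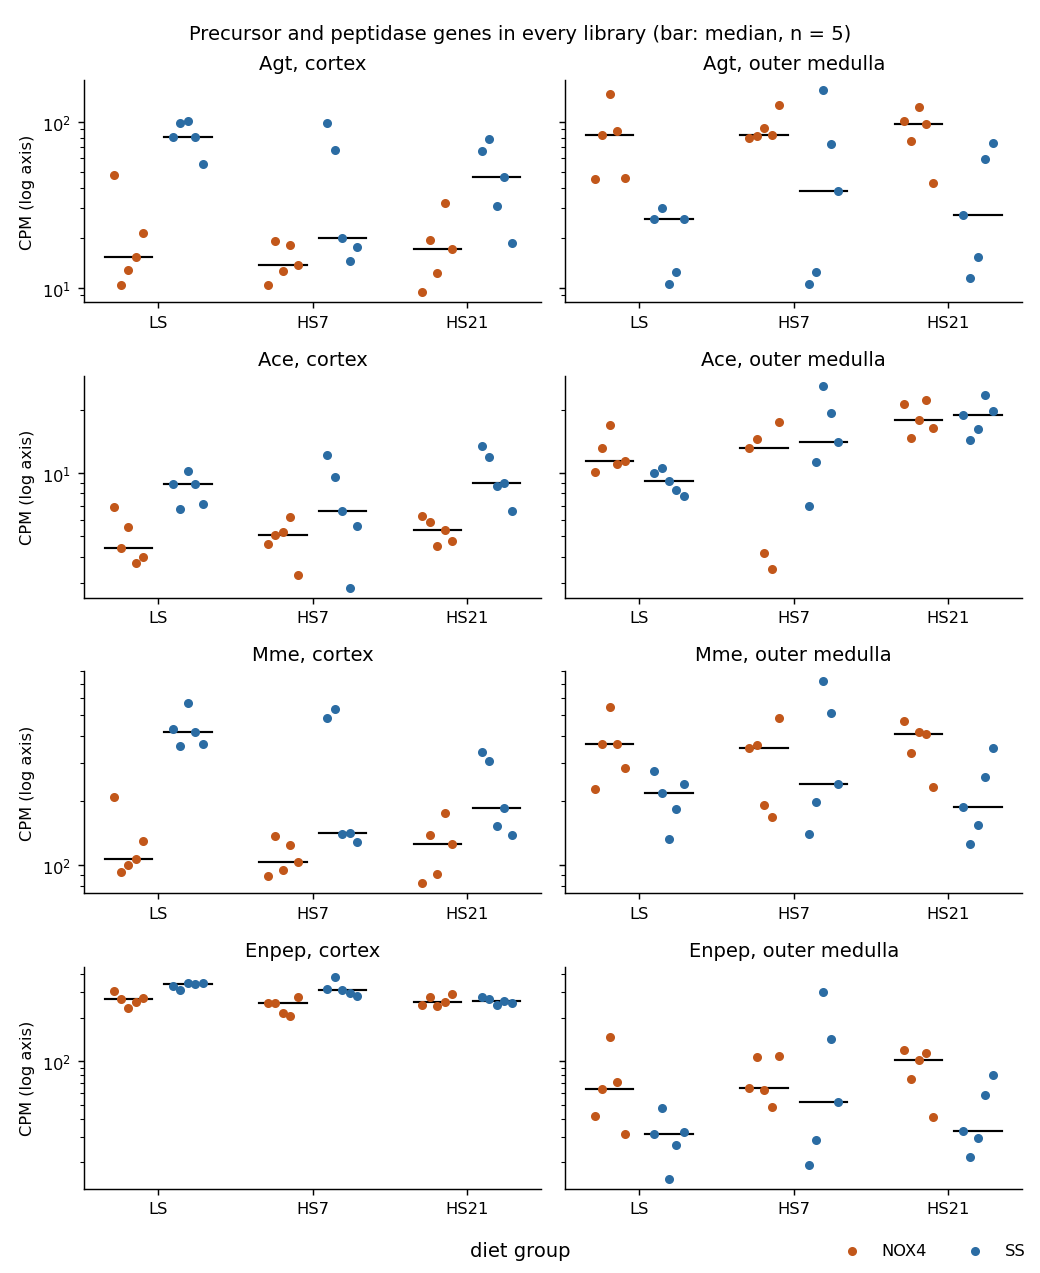
CPM of Agt, Ace, Mme and Enpep (log axes) in each library by diet group, NOX4 in orange and SS in blue, with cortex on the left and outer medulla on the right. Bars are medians of 5 libraries. Agt and Mme are lower in NOX4 cortex and Agt is higher in NOX4 outer medulla, while Enpep in cortex spans 207 to 383 CPM in all.

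Mme, whose product neprilysin turns angiotensin I into angiotensin 1-7, followed Agt closely in cortex. At LS it had 209, 93.2, 100, 107 and 130 CPM in NOX4 cortex, against 430, 361, 570, 419 and 368 CPM in SS cortex. At HS7 it had 89.1, 136, 95.3, 125 and 104 CPM in NOX4 cortex, against 486, 536, 140, 141 and 128 CPM in SS cortex. At HS21 it had 82.5, 138, 91.5, 174 and 126 CPM in NOX4 cortex, against 338, 308, 152, 184 and 138 CPM in SS cortex. The 2 SS HS7 libraries that were high in Agt were also the 2 that were high in Mme. Mme fell on average (-1.34 ± 0.20, edgeR, adjusted p = 1.24e-05), at LS (-1.75 ± 0.35, adjusted p = 7.55e-04) and at HS7 (-1.38 ± 0.34, adjusted p = 0.00701). At HS21 it had -0.87 ± 0.34 (adjusted p = 0.273). limma voom gave -0.77 ± 0.35 at HS7 (adjusted p = 0.172) and -0.91 ± 0.24 at HS21 (adjusted p = 0.00990). In outer medulla Mme ran from 167 to 546 CPM (median 365) in NOX4 libraries and from 126 to 720 CPM (median 217) in SS libraries, 0.44 ± 0.21 on average and not called (adjusted p = 0.110). Without SS HS7 replicate 3 it was called (0.57, adjusted p = 0.0200), as it was without the low-complexity libraries (0.64 ± 0.22, adjusted p = 0.0271) and without NOX4 HS7 outer medulla replicates 3 and 4 (0.56 ± 0.21, adjusted p = 0.0397). The difference between the tissues in the strain effect was called for Mme (1.79 ± 0.30, adjusted p = 3.44e-05).

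Enpep, the aminopeptidase that turns angiotensin II into angiotensin III, fell by a small amount in cortex at LS and HS7 and had the same mean in both strains at HS21. At LS it had 307, 267, 232, 256 and 274 CPM in NOX4 cortex, against 333, 310, 347, 343 and 345 CPM in SS cortex. At HS7 it had 251.5, 254, 216, 207 and 276 CPM in NOX4 cortex, against 315, 383, 312, 298 and 284 CPM in SS cortex. At HS21 it had 243, 278, 240, 258 and 291 CPM in NOX4 cortex, against 279, 269, 244, 262 and 254 CPM in SS cortex. The strains did not overlap at LS or HS7, and at HS21 their means were both 262 CPM. Enpep fell on average (-0.25 ± 0.05, edgeR, adjusted p = 3.37e-04), at LS (-0.33 ± 0.08, adjusted p = 0.00568) and at HS7 (-0.40 ± 0.08, adjusted p = 0.00215). The LS call did not hold without the low-complexity libraries (-0.35 ± 0.12, adjusted p = 0.0554), nor the HS7 call without NOX4 HS7 cortex replicates 3 and 4 (-0.29 ± 0.09, adjusted p = 0.0514). In outer medulla Enpep ran from 31.1 to 146 CPM (median 72.0) in NOX4 libraries and from 15.3 to 302 CPM (median 32.4) in SS libraries. The averaged value of 0.58 ± 0.31 there was not called (adjusted p = 0.152) and was called without SS HS7 replicate 3 (0.86, adjusted p = 0.0130), which held the 302 CPM, and without the low-complexity libraries (1.09 ± 0.30, adjusted p = 0.00674).

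Ace had the lowest level of the peptidases and fell in NOX4 cortex. At LS it had 6.89, 4.37, 5.56, 3.74 and 3.98 CPM in NOX4 cortex, against 8.83, 6.74, 10.2, 8.91 and 7.11 CPM in SS cortex. At HS7 it had 4.61, 5.07, 5.24, 6.21 and 3.26 CPM in NOX4 cortex, against 12.2, 9.57, 6.59, 2.84 and 5.60 CPM in SS cortex. At HS21 it had 6.24, 5.87, 4.48, 5.34 and 4.77 CPM in NOX4 cortex, against 13.5, 11.9, 8.65, 8.96 and 6.61 CPM in SS cortex, with no overlap at that diet only. Ace fell on average (-0.75 ± 0.15, edgeR, adjusted p = 3.93e-04) and at LS (-0.77 ± 0.27, adjusted p = 0.0348). The values of -0.59 ± 0.27 at HS7 (adjusted p = 0.123) and -0.90 ± 0.26 at HS21 (adjusted p = 0.0984) were not called. The LS call was lost without any of SS LS cortex replicates 1, 3 and 4 or NOX4 LS cortex replicates 2, 4 and 5 (adjusted p = 0.0554 to 0.0903), at -0.75 to -0.69, and without a filter on low counts (-0.76, adjusted p = 0.0519) or the low-complexity libraries (-0.70, adjusted p = 0.0898). At HS7 it was gained without SS HS7 cortex replicate 4 (-0.79, adjusted p = 0.0200), and at HS21 without SS HS7 replicate 1 (-0.90, adjusted p = 0.0493), SS HS7 replicate 4 (-0.90, adjusted p = 0.0380) or SS HS21 replicate 5 (-1.02, adjusted p = 0.0464). DESeq2 (-0.91, adjusted p = 0.0244) and limma voom (-0.82 ± 0.17, adjusted p = 0.00125) also called Ace at HS21. So did edgeR without the low-complexity libraries (-0.91, adjusted p = 0.0156) and with the compared groups alone (-0.90, adjusted p = 0.0145). At HS21 34 alternative settings kept the result and 8 gained a call. Of these settings 30 each left out 1 cortex library, most of them outside the compared groups, so the tally says little about the choice of tool. In outer medulla Ace ran from 3.49 to 22.4 CPM (median 14.5) in NOX4 libraries and from 6.99 to 26.1 CPM (median 14.1) in SS libraries. The lowest of these, 4.15 and 3.49 CPM, were NOX4 HS7 replicates 3 and 4, and the average of -0.06 ± 0.19 was not called (adjusted p = 0.851).

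More markers of proximal tubule segment 3 fell than rose in NOX4 cortex, where Agt, Mme and Ace fell. More rose than fell in NOX4 outer medulla, where Agt rose and Mme and Ace were not called. Of 11 markers listed, 10 were matched, and 5 fell and 1 rose in NOX4 cortex, where their summed level ran from 1973 to 4995 CPM in NOX4 libraries and from 2331 to 6407 CPM in SS libraries. In NOX4 outer medulla 6 rose and none fell, with sums of 1907 to 7101 CPM in NOX4 libraries and 609 to 6888 CPM in SS libraries. No marker was without counts in either strain. Of all genes tested, 31.7% were called in cortex and 30.4% in outer medulla. The score of these markers (mean log2 CPM) averaged 6.68 ± 0.44 in NOX4 cortex, against 7.27 ± 0.50 in SS cortex, and 6.71 ± 0.63 in NOX4 outer medulla and 5.41 ± 1.23 in SS outer medulla (SD, n = 15 each). With that score as a covariate in cortex, Mme had -0.55 ± 0.16 and Enpep -0.20 ± 0.06, both still called, while Agt had -0.59 ± 0.21 (adjusted p = 0.0550) and Ace -0.33 ± 0.16 (adjusted p = 0.160). At LS alone, with the covariate, none of the 4 was called (edgeR), with -0.42 for Agt, -0.08 for Ace, -0.58 for Mme and -0.26 for Enpep (adjusted p = 0.544, 0.907, 0.216 and 0.180). In outer medulla with the covariate Agt had 0.37 ± 0.13 (adjusted p = 0.0718), and Enpep fell, at -0.42 ± 0.11 (adjusted p = 0.0139), against 0.58 without it. At LS Agt had 0.31 ± 0.22 there with the covariate (adjusted p = 0.473). At HS7 with the covariate Agt rose (0.64 ± 0.19, adjusted p = 0.0285) and Ace (-0.81 ± 0.26, adjusted p = 0.0413), Mme (-0.50 ± 0.14, adjusted p = 0.0206) and Enpep (-0.57 ± 0.15, adjusted p = 0.0172) fell, none of which was called without it. NOX4 HS7 cortex replicates 3 and 4, whose library names are out of order, had scores of 7.45 and 7.65 and 12.6 and 18.0 CPM of Agt. The scores of SS LS cortex were 7.58 to 7.78. Over the 30 libraries of each tissue, which share strain and diet, Agt and the score had a Pearson's r of 0.846 in cortex and 0.955 in outer medulla, given as a description. Within cortex it was 0.47 in NOX4 and 0.96 in SS libraries (n = 15 each). In such bulk tissue fewer cells of a type and less RNA per cell cannot be told apart, and the part of segment 3 in these differences was not tested beyond the covariate.

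Markers of several other cell types were higher in NOX4 cortex, among them those of proximal tubule segments 1 and 2. Of these 11, 8 rose and none fell in NOX4 cortex, with scores of 9.96 ± 0.20 in NOX4 and 9.63 ± 0.24 in SS (SD, n = 15 each) and sums of 15159.5 to 22662 CPM in NOX4 and 13117 to 21945 CPM in SS. With this score as covariate Mme (-0.75 ± 0.24) and Enpep (-0.23 ± 0.07) stayed called in cortex, while Agt had -0.85 ± 0.32 (adjusted p = 0.0906) and Ace -0.43 ± 0.19 (adjusted p = 0.154). In NOX4 cortex 7 of 7 podocyte markers, 6 of 6 of intercalated cells, 3 of 3 tested of the distal convoluted tubule and 5 of 7 of principal cells also rose, with none lower. Of all genes tested there, 31.7% were called. Of 4 fat markers, 2 could be tested in cortex, where 1 rose and 1 fell, and 3 in outer medulla, where 2 rose and none fell. The score of those tested averaged 3.19 ± 0.36 in NOX4 cortex, against 3.56 ± 0.40 in SS cortex, and 3.15 ± 0.39 in NOX4 outer medulla, against 1.84 ± 0.60 in SS outer medulla (SD, n = 15 each). It ran with Agt over the 30 libraries of each tissue (Pearson's r = 0.80 in cortex and 0.85 in outer medulla, beside 0.846 and 0.955 for the segment 3 score, a description, since these libraries share strain and diet). The part of these cells in the results for Agt, Mme, Ace and Enpep was not tested.

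**Figure D2:**
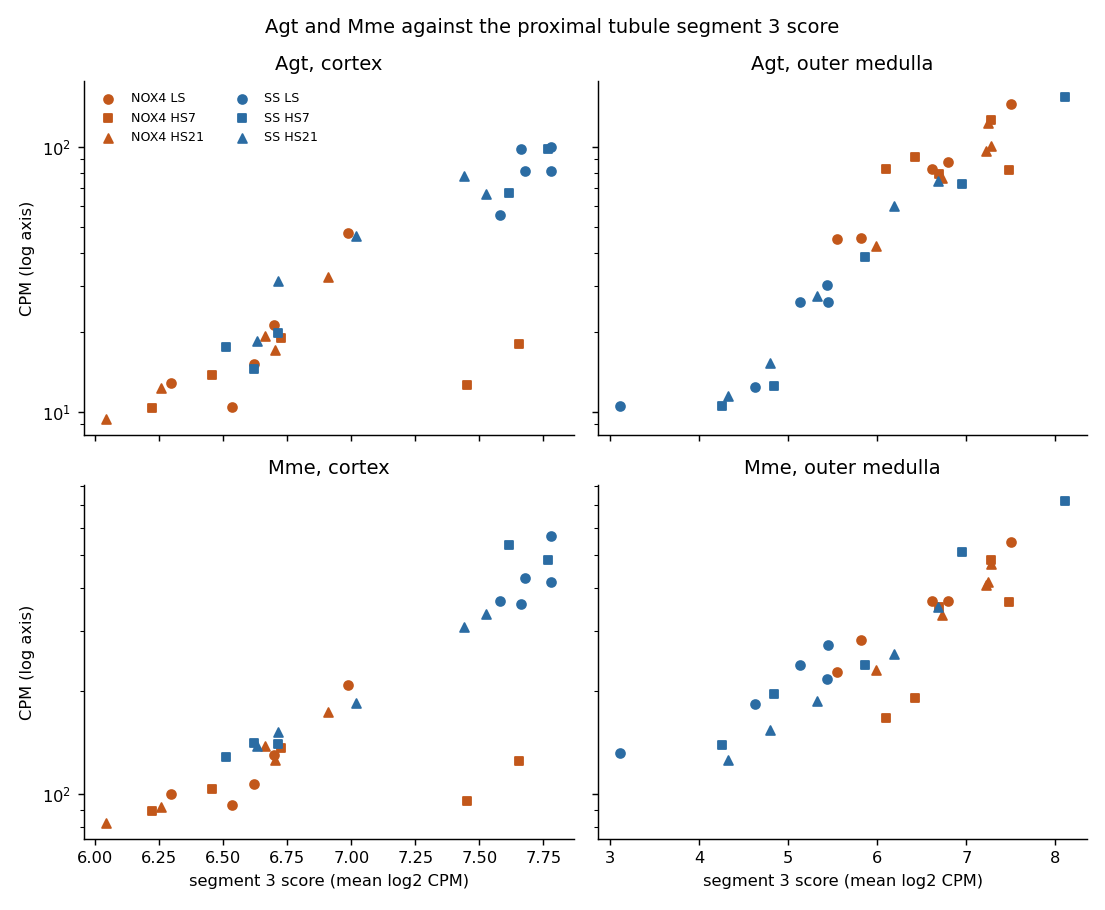
CPM of Agt and Mme (log axes) in each library against its score for markers of proximal tubule segment 3 (mean log2 CPM), NOX4 in orange and SS in blue, with circles for LS, squares for HS7 and triangles for HS21. Libraries with a higher score tend to hold more Agt and Mme in both tissues. The 2 NOX4 HS7 cortex libraries with names out of order have scores of 7.45 and 7.65. Their Agt and Mme lie below those of the SS LS cortex libraries, whose scores are 7.58 to 7.78.

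The type 1 receptor genes Agtr1a and Agtr1b are a rodent gene pair on different chromosomes. Sequence upstream of both, and of Mme as the member peptidase gene that fell most in cortex, is shown from RefSeq (GRCr8), 250 bases up to the start of the gene and on the gene's strand. Capitals mark TATAAA and GGGCGG, searched on both strands. Agtr1a lies on the minus strand (chr17:34435433-34435682), as does Agtr1b (chr2:104849263-104849512), and Mme on the plus strand (chr2:149872247-149872496).
Agtr1a: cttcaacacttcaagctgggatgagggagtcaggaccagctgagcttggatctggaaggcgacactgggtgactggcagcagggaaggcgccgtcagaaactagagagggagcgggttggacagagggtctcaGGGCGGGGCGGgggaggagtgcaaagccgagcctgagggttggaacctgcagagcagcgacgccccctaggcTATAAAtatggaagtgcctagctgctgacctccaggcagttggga
Agtr1b: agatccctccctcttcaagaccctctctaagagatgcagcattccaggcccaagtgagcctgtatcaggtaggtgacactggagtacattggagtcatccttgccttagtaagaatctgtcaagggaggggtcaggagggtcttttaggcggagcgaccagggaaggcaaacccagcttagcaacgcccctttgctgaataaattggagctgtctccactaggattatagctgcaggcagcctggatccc
Mme: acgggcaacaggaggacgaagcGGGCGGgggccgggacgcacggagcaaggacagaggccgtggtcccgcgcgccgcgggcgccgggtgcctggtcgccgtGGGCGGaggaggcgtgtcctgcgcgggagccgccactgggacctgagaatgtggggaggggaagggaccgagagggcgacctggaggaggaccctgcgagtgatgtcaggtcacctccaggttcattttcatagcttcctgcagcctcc
Of the 8 members, 7 had an entry. TATAAA stood in 2 of these windows, at -45 to -40 in Agtr1a and, on the other strand, at -42 to -37 in Ace, and in 12.9% of 33469 windows of the same length. GGGCGG stood in 4, those of Ace, Agtr1a, Mme and Atp6ap2, and in 30.5% of all windows. In Agtr1a 2 copies overlap, and neither motif's letters occur in the Agtr1b window.

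Both receptor genes fell in NOX4 outer medulla, Agtr1b more than Agtr1a. Agtr1b at LS had 6.22, 3.32, 3.95, 6.23 and 6.77 CPM in NOX4 outer medulla, against 14.2, 7.996, 10.8, 9.14 and 15.01 CPM in SS outer medulla. At HS7 it had 5.39, 3.55, 5.44, 2.87 and 2.76 CPM in NOX4 outer medulla, against 9.95, 9.65, 5.12, 8.53 and 6.46 CPM in SS outer medulla. At HS21 it had 3.96, 3.05, 3.88, 3.92 and 3.50 CPM in NOX4 outer medulla, against 5.27, 7.25, 8.54, 7.89 and 6.31 CPM in SS outer medulla. The strains did not overlap at LS or HS21, and at HS7 only SS replicate 3 lay within the NOX4 range. Agtr1b fell on average (-1.04 ± 0.14, edgeR, adjusted p = 1.51e-05), with the NOX4 level at 48.6% of SS, and at each diet, with -1.14 ± 0.25 at LS (adjusted p = 0.00387), -1.02 ± 0.25 at HS7 (adjusted p = 0.0126) and -0.96 ± 0.25 at HS21 (adjusted p = 0.0412). It was the only member called at HS7 and at HS21, where 9.61% and 1.63% of all genes were. The HS7 call was lost without NOX4 HS7 replicate 4 (-0.91, adjusted p = 0.0564), without NOX4 HS7 replicates 3 and 4 together (-1.04 ± 0.28, adjusted p = 0.0956) and with the compared groups alone (-0.99 ± 0.30, adjusted p = 0.267). The HS21 call was lost without any of SS HS21 replicates 1, 2, 3 and 4 or NOX4 HS21 replicates 1, 2, 3, 4 and 5, at -1.05 to -0.87 (adjusted p = 0.0561 to 0.136), and without a filter on low counts (-0.96, adjusted p = 0.0656). In cortex Agtr1b had 4.92 ± 0.727 CPM in NOX4 libraries and 4.62 ± 1.52 CPM in SS libraries (SD, n = 15 each), 0.10 ± 0.14 and not called, and the strain effect differed between the tissues (-1.12 ± 0.20, adjusted p = 6.67e-05).

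Agtr1a, the more abundant receptor gene, fell less. At LS it had 81.1, 51.3, 55.6, 69.2 and 81.7 CPM in NOX4 outer medulla, against 101, 80.5, 135, 87.4 and 110 CPM in SS outer medulla. At HS7 it had 61.7, 51.3, 51.4, 35.4 and 40.6 CPM in NOX4 outer medulla, against 76.9, 87.4, 28.3, 65.2 and 66.9 CPM in SS outer medulla. At HS21 it had 50.3, 47.9, 54.4, 50.4 and 49.98 CPM in NOX4 outer medulla, against 66.2, 70.9, 68.7, 81.2 and 57.3 CPM in SS outer medulla. Only HS21 showed no overlap, and the lowest library of all was SS HS7 replicate 3 with 28.3 CPM. Agtr1a fell on average (-0.52 ± 0.12, edgeR, adjusted p = 0.00187) and at LS (-0.64 ± 0.21, adjusted p = 0.0365), with -0.46 ± 0.21 at HS7 and -0.46 ± 0.21 at HS21, neither called. The LS call was lost without SS LS replicate 3 (-0.51, adjusted p = 0.109), SS LS replicate 5 (-0.61, adjusted p = 0.0650), NOX4 LS replicate 2 (-0.55, adjusted p = 0.0986), NOX4 LS replicate 3 (-0.58, adjusted p = 0.0955) or NOX4 LS replicate 4 (-0.65, adjusted p = 0.0705), without the low-complexity libraries (-0.50, adjusted p = 0.0798) and without a filter (-0.63, adjusted p = 0.0513). The HS7 value became -0.66 (adjusted p = 0.00566) without SS HS7 replicate 3. Without the low-complexity libraries Agtr1a was called at HS7 (-0.71, adjusted p = 0.0144) and HS21 (-0.46, adjusted p = 0.0383). limma voom called HS7 (-0.51 ± 0.17, adjusted p = 0.0382) and HS21 (-0.48 ± 0.11, adjusted p = 5.22e-04). edgeR with the compared groups alone called HS21 (-0.46, adjusted p = 0.00743). At each of HS7 and HS21, 39 alternative settings kept the result and 4 gained a call. Of these settings 30 each left out 1 outer medulla library, most of them outside the compared groups, so this tally too says little about the tool. In cortex Agtr1a had 59.0 ± 8.15 CPM in NOX4 libraries and 63.3 ± 13.1 CPM in SS libraries (SD, n = 15 each), -0.10 ± 0.08 and not called. Without the low-complexity libraries it fell there (-0.18 ± 0.07, adjusted p = 0.0390). At HS7 its value in cortex was -0.40 ± 0.14 (adjusted p = 0.0535) and was called by DESeq2 (-0.41, adjusted p = 0.0290) and without any of SS LS cortex replicates 4 and 5 or SS HS7 cortex replicates 4 and 5 (-0.46 to -0.40, adjusted p = 0.0117 to 0.0434). That HS7 value was also called without the low-complexity libraries (-0.39, edgeR, adjusted p = 0.0200).

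Since the 2 receptor transcripts are alike in sequence, reads could have been split between them by the counting, and their single levels are uncertain to that extent. Agtr1b made up 7.15 ± 0.851% of the counts of both genes at LS, 7.58 ± 1.31% at HS7 and 6.74 ± 0.544% at HS21 in NOX4 outer medulla, against 10.04 ± 2.06%, 11.4 ± 2.46% and 9.30 ± 1.36% in SS outer medulla (SD, n = 5 each). In NOX4 cortex the shares were 7.08 ± 1.21%, 7.93 ± 2.28% and 8.49 ± 0.962%, against 7.63 ± 1.23%, 6.50 ± 2.08% and 6.23 ± 1.13% in SS cortex. This share was looked at after the levels were seen and is given as a description. The share is lower in NOX4 than in SS at each diet in outer medulla and has no such order in cortex.

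Cells of vessels and of the interstitium are known sites of type 1 receptors, and the markers of some of them were lower in NOX4 outer medulla. Of 9 markers of smooth muscle, mesangium and pericytes, 6 fell and none rose, with sums of 304 to 504 CPM in NOX4 libraries and 432 to 964 CPM in SS libraries. Of 6 fibroblast markers 5 fell and none rose, with sums of 836 to 2054 CPM in NOX4 and 744 to 4484 CPM in SS. No marker of either list was without counts. Of all genes tested in outer medulla, 30.4% were called, 15.1% of those tested being lower. Of 7 endothelial markers 1 rose and none fell, with scores of 6.75 ± 0.21 in NOX4 and 6.80 ± 0.27 in SS outer medulla (SD, n = 15 each). Over the 30 outer medulla libraries, which share strain and diet, Agtr1a had a Pearson's r of 0.74 with the endothelial score, -0.0079 with that of smooth muscle, mesangium and pericytes and 0.36 with that of fibroblasts, and Agtr1b had 0.49, 0.21 and 0.42, given as a description. With the scores of segment 3 and of fat, Agtr1a had -0.77 and -0.74, and Agtr1b -0.68 and -0.80. In cortex 5 of 6 fibroblast markers also fell, where 15% of genes tested were called lower. With the segment 3 score as covariate Agtr1b had -0.85 ± 0.17 in outer medulla and stayed called, while Agtr1a had -0.21 ± 0.12 (adjusted p = 0.280); the part of fibroblasts, smooth muscle and endothelium in the receptor result was not tested.

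**Figure D3:**
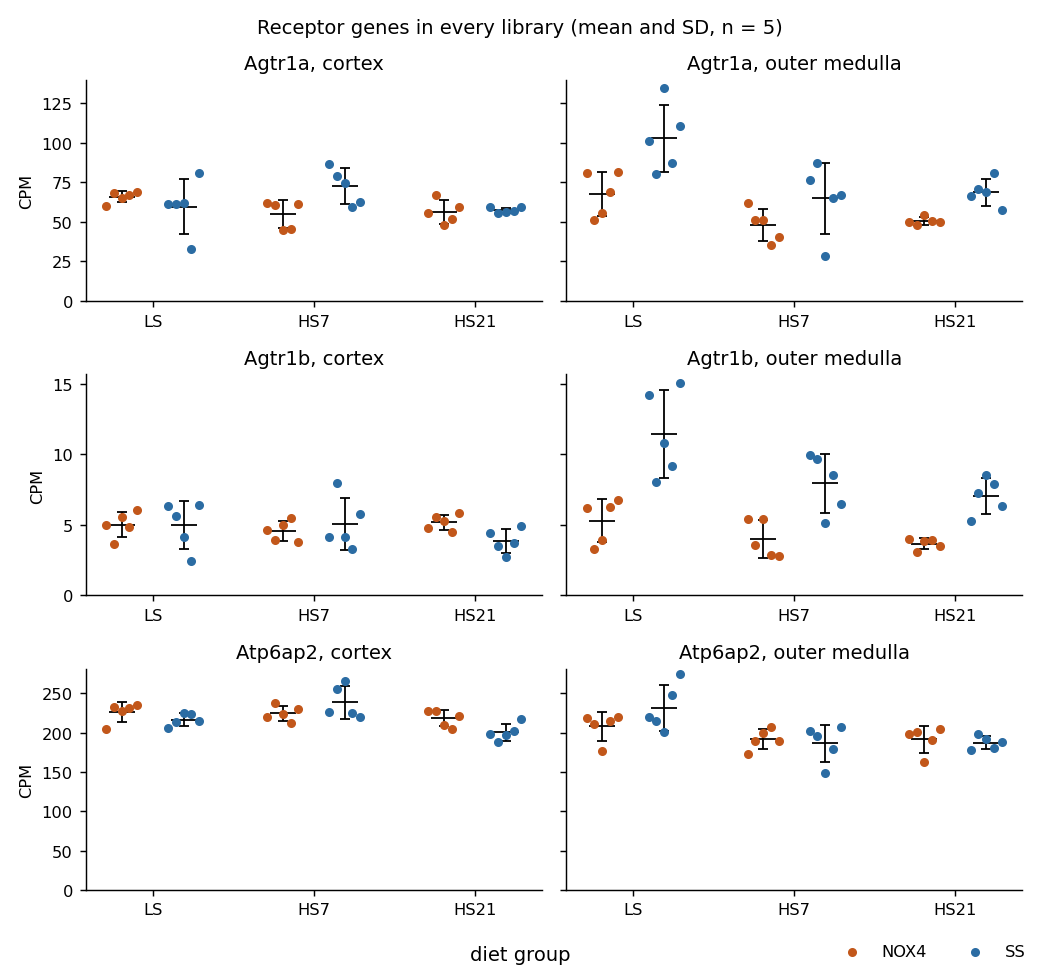
CPM of Agtr1a, Agtr1b and Atp6ap2 in each library by diet group, NOX4 in orange and SS in blue, with means and SD of 5 libraries. In outer medulla the NOX4 libraries lie between 2.76 and 6.77 CPM of Agtr1b and the SS libraries between 5.12 and 15.01 CPM, while in cortex the strains overlap at every diet.

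Atp6ap2, the (pro)renin receptor gene, was the steadiest member. It had 205 to 238 CPM (median 227) in NOX4 cortex and 187 to 265 CPM (median 217) in SS cortex, and 163 to 220 CPM (median 200) in NOX4 outer medulla and 149 to 275 CPM (median 198) in SS outer medulla. The log2 fold changes of 0.03 ± 0.03 in cortex and -0.05 ± 0.06 in outer medulla were not called (edgeR, adjusted p = 0.512 and 0.506). Mas1, the receptor gene for angiotensin 1-7, was close to the limit of detection, with 3 to 19 counts per library in NOX4 cortex and 0 to 16 in SS cortex. In outer medulla it had 0 to 7 counts in NOX4 and 0 to 9 in SS libraries and was not tested there. In cortex it had 0.518 ± 0.227 CPM in NOX4 libraries and 0.341 ± 0.363 CPM in SS libraries (SD, n = 15 each), 0.65 ± 0.44 on the log2 scale and not called (adjusted p = 0.275). At HS21 alone an exact permutation test on log2 CPM gave p = 0.0317 for a difference of 0.78 (two-sided, n = 5 each, unadjusted).

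**Figure D4:**
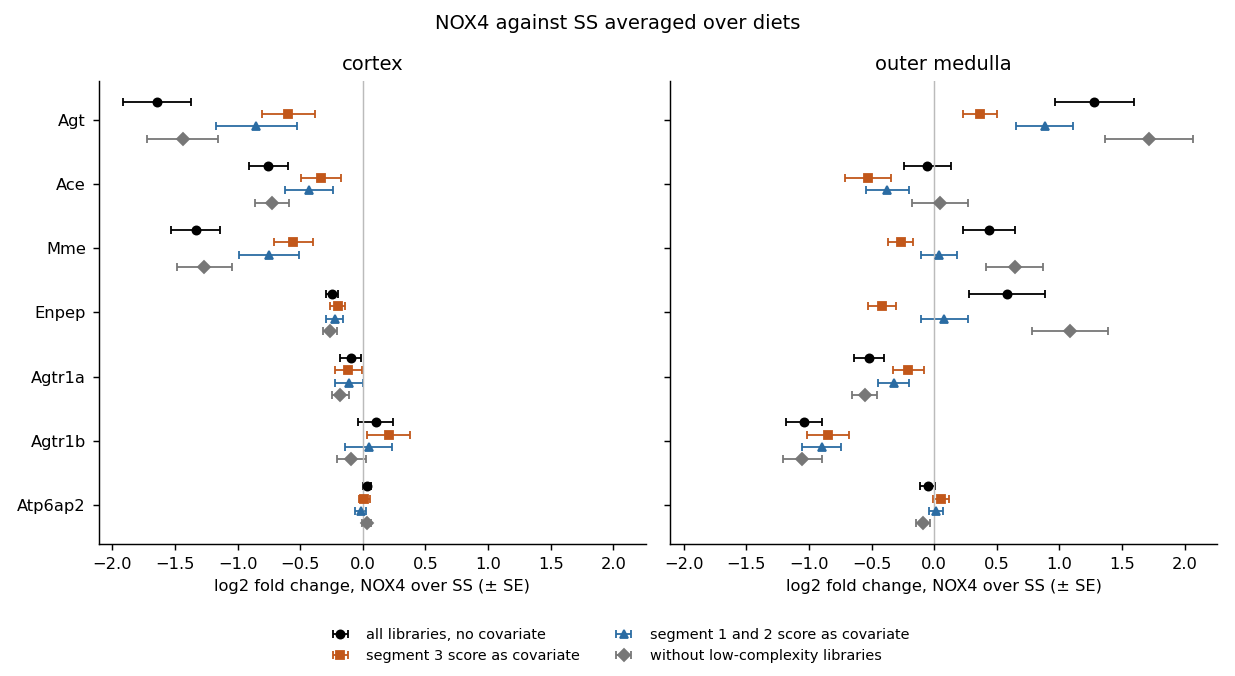
Log2 fold change of 7 members, NOX4 over SS averaged over diets, with SE, in cortex (left) and outer medulla (right). Black circles use all libraries; the other symbols add a tubule marker score as covariate or leave out the low-complexity libraries. In outer medulla Enpep has 0.58 with all libraries, -0.42 with the segment 3 score and 1.09 without the low-complexity libraries.

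Salt moved few members in edgeR with all libraries. In SS cortex at HS21 against LS, 1 of 8 members, Enpep, fell (-0.36 ± 0.08, edgeR, adjusted p = 0.00434), with 262 ± 13.5 CPM at HS21 and 336 ± 15.3 CPM at LS (SD, n = 5 each) and no overlap, where 16.5% of all genes were called and 8.04% were lower; without the low-complexity libraries it had -0.37 ± 0.12 (adjusted p = 0.0560). Mme in the same comparison had 224 ± 92.2 CPM at HS21 and 429 ± 84.1 CPM at LS, -0.94 ± 0.34 (adjusted p = 0.0532), and was called without NOX4 LS cortex replicate 1, SS HS21 replicate 1 or 2, or any 1 SS HS7 library (-1.14 to -0.94, adjusted p = 0.0330 to 0.0474). DESeq2 (adjusted p = 0.0492) and limma voom (adjusted p = 0.0345) called Mme too. So did edgeR with a filter of 1 CPM (adjusted p = 0.0496), a replicate block (adjusted p = 0.0242) or the compared groups alone (adjusted p = 0.0177). Without a filter and without the low-complexity libraries Mme stayed uncalled. In SS outer medulla at HS21 against LS, 1 of 7, Atp6ap2, fell (-0.33 ± 0.10, adjusted p = 0.0359), with 187 ± 8.48 CPM at HS21 and 232 ± 29.4 CPM at LS, where 9.86% of all genes were called and 4.56% were lower. That call was lost without any of SS LS replicates 4 and 5 or SS HS21 replicates 1, 3, 4 and 5 (-0.33 to -0.26, adjusted p = 0.0544 to 0.107), and without a filter on low counts (-0.31, adjusted p = 0.0735). Ace had 18.6 ± 3.53 CPM at HS21 and 9.21 ± 1.16 CPM at LS in SS outer medulla with no overlap (0.99 ± 0.33, adjusted p = 0.0527), and it was called without SS HS7 replicate 1 or 3 or NOX4 HS7 replicate 3, 4 or 5 (adjusted p = 0.0254 to 0.0436). The receptor genes had -0.60 ± 0.21 (Agtr1a, adjusted p = 0.0596) and -0.72 ± 0.24 (Agtr1b, adjusted p = 0.0581) there, and each was called without SS LS replicate 2 (-0.68, adjusted p = 0.0468, and -0.82, adjusted p = 0.0385) or SS HS7 replicate 3 (-0.60, adjusted p = 0.00962, and -0.71, adjusted p = 0.0356). In the same comparison DESeq2 called Ace, Agtr1a and Agtr1b (adjusted p = 0.0260, 0.0335 and 0.0249). limma voom called them too (0.92, -0.54 and -0.89, adjusted p = 0.0182, 0.0117 and 0.00302). With the compared groups alone edgeR called Ace (1.00, adjusted p = 0.00314) and Agtr1a (-0.59, adjusted p = 0.0240). The result was kept in 32 alternative settings for Ace, 35 for Agtr1a and 36 for Agtr1b, and 11, 8 and 7 gained a call. Of the settings 30 each left out 1 outer medulla library, most of them outside the compared groups.

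At HS7 against LS no member was called in SS cortex or SS outer medulla, where 2.25% and 2.37% of all genes were called by edgeR. Unadjusted p was under 0.05 for 2 of 8 members and 2975 of 15179 genes in SS cortex, and for 7 of 7 members and 3451 of 15799 genes in SS outer medulla. In the outer medulla comparison 4 members were called without 1 of SS HS7 replicates 1 and 2. These were Enpep (2.07 and 2.03), Agtr1a (-0.75 and -0.82) and Atp6ap2 (-0.36 and -0.36) without either of the 2, and Agt (1.69) without replicate 1. In NOX4 rats no member was called at HS7 or HS21 in either tissue, nor was any other gene (0% of genes in edgeR). Unadjusted p was under 0.05 for 0 of 8 members at each time in NOX4 cortex and for 1 and 2 of 7 in NOX4 outer medulla, and over all genes for 782 and 236 in cortex and 2162 and 249 in outer medulla. DESeq2 called 18 and 7 genes in NOX4 cortex and 124 and 5 in NOX4 outer medulla, and limma voom 1 and 115, and 2 and 5, with no member among them. The salt effect differed between the strains for no member in edgeR, where 0.0132% and 1.08% of genes were called in cortex at HS7 and HS21, and 0% and 0.0253% in outer medulla. Unadjusted p was under 0.05 for 1 member at each time in cortex, beside 1980 and 2438 of all genes, and for 2 and 0 members in outer medulla, beside 1676 and 1466; no alternative setting called a member.

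Outer medulla and cortex differed in most members. Averaged over the 6 groups of strain and diet, 7 of 8 were called, 4 higher and 3 lower in outer medulla, beside 71.6% of 16326 genes tested, 37.6% of those tested being higher and 34% lower. Enpep fell most in outer medulla among the well-measured members, with 70.5 ± 57.3 CPM there and 281 ± 41.7 CPM in cortex (SD, n = 30 each; -2.11 ± 0.17, edgeR, adjusted p = 1.14e-16). Ace was higher, with 14.2 ± 5.62 CPM in outer medulla and 6.79 ± 2.72 CPM in cortex (1.07 ± 0.12, adjusted p = 6.60e-11). Mas1 fell by 2.3002 ± 0.38, Atp6ap2 by 0.15 ± 0.03, Agtr1b rose by 0.35 ± 0.10, Mme by 0.64 ± 0.15 and Agt by 0.82 ± 0.21, all on the log2 scale. Agtr1a had 0.10 ± 0.07 and was not called (adjusted p = 0.236).

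For Agt and Mme the tissue difference depended on the strain. In NOX4 rats at LS Agt had 81.3 ± 41.1 CPM in outer medulla and 21.4 ± 15.1 CPM in cortex (SD, n = 5 each; 1.93 ± 0.54, edgeR, adjusted p = 0.00311). In SS rats at LS it had 21.0 ± 8.89 CPM in outer medulla and 83.3 ± 18.0 CPM in cortex (-1.99 ± 0.54, adjusted p = 0.00163). Mme was likewise higher in NOX4 outer medulla (358 ± 121 CPM, against 128 ± 47.4 CPM in cortex) and lower in SS outer medulla (209 ± 54.1 CPM, against 429 ± 84.1 CPM in cortex), with log2 fold changes of 1.49 ± 0.37 (adjusted p = 0.00102) and -1.04 ± 0.37 (adjusted p = 0.0150). Agtr1b, whose strain effect also differed between the tissues, was higher in outer medulla of SS rats at LS (1.199 ± 0.24, adjusted p = 3.66e-05). Agtr1a was higher there as well (0.78 ± 0.18, adjusted p = 2.36e-04). Its difference between the tissues in the strain effect was not called by edgeR (-0.40 ± 0.15, adjusted p = 0.0694) and was called with DESeq2 (-0.43, adjusted p = 0.0395). In NOX4 rats at LS Agtr1b had 0.08 ± 0.24 and Agtr1a 0.04 ± 0.18, neither called. At LS 5 of 8 members were called in NOX4 rats and 6 of 8 in SS rats, beside 38.1% and 53.7% of all genes. At HS7 5 of 8 were called in NOX4 rats and 4 of 8 in SS rats, beside 46.8% and 43.6%, and at HS21 5 of 8 and 3 of 8, beside 34.6% and 41.8%.

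Other genes of the pathway were read from a list of 25, of which 21 were matched and 14 tested. In NOX4 cortex 4 rose and 3 fell, beside 31.7% of all genes called, and in NOX4 outer medulla 5 rose and 1 fell, beside 30.4%. The peptidase genes Anpep and Prep had the pattern of Agt. Anpep had 919 ± 222 CPM in NOX4 cortex, against 1468 ± 441 CPM in SS cortex (SD, n = 15 each; -0.67 ± 0.12, edgeR, adjusted p = 1.38e-04). In outer medulla it had 1190 ± 461 CPM in NOX4 libraries, against 632 ± 710 CPM in SS libraries (1.07 ± 0.35, adjusted p = 0.0218). Prep, for prolyl endopeptidase, had 58.5 ± 18.7 CPM in NOX4 cortex, against 123 ± 53.5 CPM in SS cortex (-1.02 ± 0.17, adjusted p = 4.47e-05). In outer medulla it had 184 ± 54.2 CPM in NOX4 libraries, against 96.5 ± 75.4 CPM in SS libraries (1.01 ± 0.22, adjusted p = 0.00157). Nln, for the peptidase neurolysin, fell in both tissues (-0.17 ± 0.05 and -0.24 ± 0.08).

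The remaining strain calls had log2 fold changes of 0.11 to 0.63. In NOX4 cortex Ctsa, the gene of cathepsin A, rose by 0.54 ± 0.08, Hsd11b2, whose enzyme shields the mineralocorticoid receptor from glucocorticoids, by 0.63 ± 0.11, Nr3c2, the mineralocorticoid receptor gene, by 0.33 ± 0.09 and Atp6ap1, a proton pump subunit gene, by 0.11 ± 0.04. In NOX4 outer medulla Agtrap, whose product binds the type 1 receptor, rose by 0.56 ± 0.16, and the peptidase genes Thop1 and Dpp3 rose by 0.47 ± 0.13 and 0.39 ± 0.10. Between tissues 5 of the 14 were higher and 7 lower in outer medulla, beside 71.6% of all genes called, Ctsa the most, with 392 ± 97.6 CPM in outer medulla and 2115 ± 517 CPM in cortex (SD, n = 30 each; -2.42 ± 0.07, edgeR, adjusted p = 6.80e-35).

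**Figure D5:**
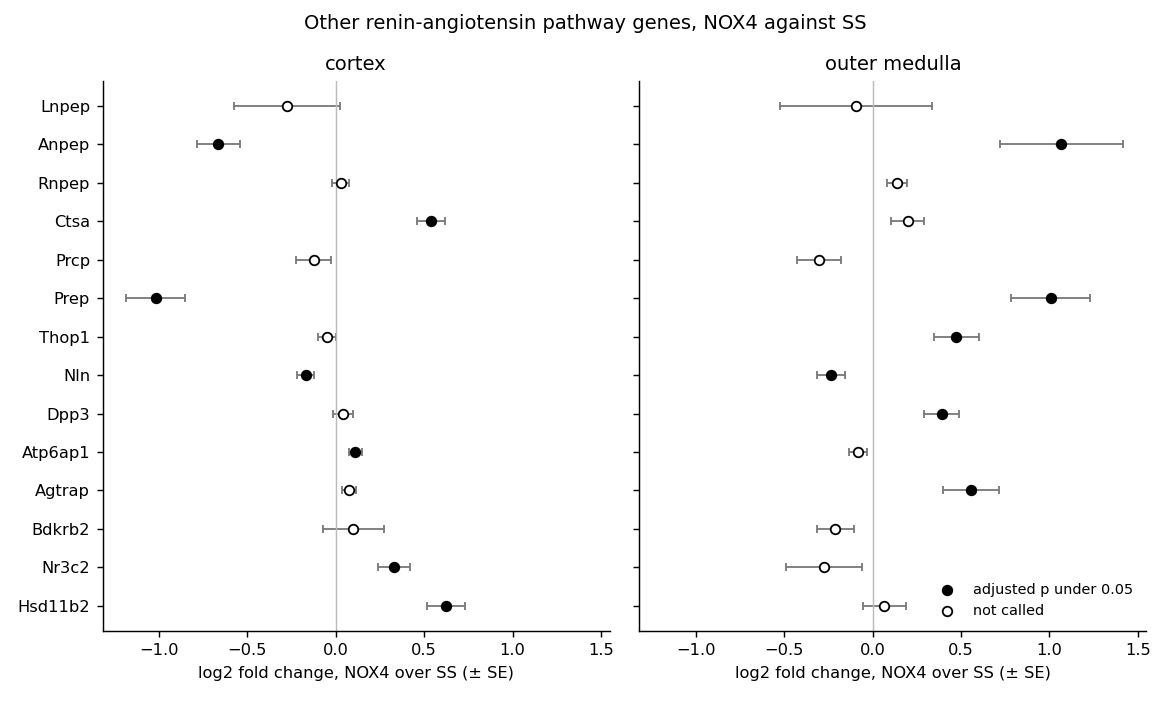
Log2 fold change of the 14 other pathway genes tested, NOX4 over SS averaged over diets, with SE, in cortex (left) and outer medulla (right). Filled points are called. Anpep and Prep lie below 0 in cortex and above 0 in outer medulla.

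Genes whose log2 CPM ran most like a member's were found over the 30 libraries of the tissue where that member was higher, as a description without a test, since these libraries share strain, diet and tissue makeup. Agt in outer medulla ran most like Ggt1, Cyp4f1 and Acy1 (Pearson's r = 0.989, 0.988 and 0.986). Mme there ran most like Ghr, Aldh6a1 and Cd164 (0.976, 0.974 and 0.973), and Ace like Sh3d19, Pigr and Arsb (0.901, 0.881 and 0.877). Agtr1a ran most like Fbln5, Hgf and Hmcn1 (0.909, 0.894 and 0.892), and Agtr1b like Card6, Ubtd2 and Itga8 (0.871, 0.850 and 0.843). In cortex Enpep ran most like Sult1c2a, Slc22a22 and Skp1 (0.915, 0.911 and 0.909) and Atp6ap2 like Atp6v1a, Vdac2 and Cyb5b (0.834, 0.802 and 0.767). Atp6v1a encodes a subunit of the same proton pump. Mas1 in cortex, with few counts, had C2, Rab42 and Gnb5 first (0.792, 0.763 and 0.759), and at such counts no likeness is read from this.

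In the authors' deposited table, whose test is not stated, members with an adjusted p under 0.05 for NOX4 against SS were Agt, Ace, Mme and Enpep at LS in cortex, Mme and Enpep at HS7 and Agt and Ace at HS21. In that deposited table outer medulla had Agt, Agtr1a, Agtr1b, Mme and Enpep at LS, none at HS7, and Agtr1a, Agtr1b and Mme at HS21.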

How the data were processed

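RNA of 60 kidney libraries, 30 from cortex and 30 from outer medulla, was measured by RNA sequencing. Per the labels' protocols, frozen tissue was extracted with Trizol and poly(A) RNA was sequenced. HISAT2 2.0.5, StringTie 1.3.3b and featureCounts 1.5.0-p3 are named in the submitters' processing notes; strandedness and genome build are not given in the sources used here. The authors deposited raw counts and FPKM per gene and library, with log2 fold changes and adjusted p-values of their own comparisons; per the file headers these are separate columns. Counts were used for every test and FPKM only to set levels of different genes side by side. A sequence read is not an independent molecule, so precision from depth covers counting error only.

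Members and gene lists were chosen with earlier results of these data known. Genes passing edgeR's filterByExpr were normalized by TMM and tested with the quasi-likelihood F test (edgeR 4.0.16, R 4.3.3) over the 30 libraries of a tissue, or all 60 for comparisons between tissues, with 1 coefficient per group and Benjamini-Hochberg adjustment over all genes tested. Genes with an adjusted p below 0.05 are referred to as called. The SE of a log2 fold change was derived from its F statistic. CPM were scaled by TMM over all 60 libraries. Marker scores are means of log2 CPM with a prior count of 2. The tests were tested on simulated data with known changes. Alternatives were DESeq2 1.42.0 and its size factors, limma 3.58.1 voom with quality weights, other filters, exact permutation of each group pair, a replicate block, covariates, the compared groups alone, and leaving out libraries. Some genes of the other pathway list are not reported here. The 8 members, called genes of the other pathway list and the 3 genes most like each member were named. No 2 libraries agreed within sampling noise. The promoter tables of RefSeq (GRCr8) gave the sequences.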

Additional observations from a re-analysis of the deposited data

Results flagged for a closer look

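Of 84 groups of 5 libraries examined (members with a mean of at least 1 CPM), 3 held a library far from the other 4, and chance gives about 1 in 20. Agt had 127 CPM in NOX4 HS7 outer medulla replicate 5, above the other 4 at 79.1 to 91.4 CPM. Atp6ap2 had 205 CPM in NOX4 LS cortex replicate 1, below the other 4 at 228 to 235 CPM, and 176 CPM in NOX4 LS outer medulla replicate 3, below the other 4 at 211 to 220 CPM.

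NOX4 against SS differed between the tissues for 3 members by the test of the difference itself (edgeR, adjusted p = 5.75e-06 for Agt, 6.67e-05 for Agtr1b and 3.44e-05 for Mme). Strain cannot be told apart here from library order, and all low-complexity libraries were SS. This comparison was not fitted with a marker score. The difference, outer medulla minus cortex, was 2.93 for Agt, -1.12 for Agtr1b and 1.79 for Mme on the log2 scale.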

How the results depend on the processing

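The numbers of members called were 4 (cortex, strain averaged over diets), 7 (cortex, strain summed over the 3 diets), 1 (cortex, salt), 3 (outer medulla, averaged), 5 (outer medulla, diets), 1 (outer medulla, salt), 7 (tissue, averaged), 28 (tissue within the 6 groups) and 3 (difference between tissues), and 0 for the strain by salt interaction in each tissue. Leaving out 1 library at a time gave 4 to 4, 6 to 10, 1 to 2, 3 to 5, 3 to 7, 0 to 6, 7 to 7, 27 to 30 and 3 to 6 in that order, and 0 to 0 for the interactions. The following counts moved by over 1.5 times, and the cause was not tested. With the segment 3 score as covariate cortex had 2 averaged and 3 over diets, and outer medulla 2 for salt; with the score of segments 1 and 2 cortex had 2 and 1, and outer medulla 3 over diets. For cortex salt DESeq2, the filter of 1 CPM, limma voom and the compared groups alone gave 2, and leaving out the low-complexity libraries 0. In outer medulla limma voom gave 5 averaged, 11 over diets and 4 for salt, no filter gave 3 over diets and 0 for salt, DESeq2 gave 7 and the compared groups alone 3 for salt. Without the low-complexity libraries outer medulla had 5 averaged; without SS HS7 replicate 3 and NOX4 HS7 replicate 2 it had 5 averaged and 4 for salt, and without NOX4 HS7 replicates 3 and 4 it had 4 for salt; these 2 outer medulla exclusions were chosen after seeing the data. The difference between tissues gave 5 with DESeq2 and without NOX4 HS7 cortex replicates 3 and 4, and 6 with limma voom, without the low-complexity libraries and without SS HS7 outer medulla replicate 3 and NOX4 HS7 outer medulla replicate 2.

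With DESeq2's size factors 135 single-member values kept direction and call and 1 gained a call, and without a filter 132 kept both and 4 lost a call. In exact permutation tests of group pairs, unadjusted and with a smallest possible p of 0.00794, 78 kept both, 26 gained a call and 1 lost it. A turned sign is listed where the value from all libraries lay over 1 SE from 0 or either value was called; several of the values below lie within 1 SE of 0 themselves and show no direction of their own. Signs turned with the segment 3 covariate for Agt in SS cortex at HS21 against LS (0.043) and in SS outer medulla at HS7 and HS21 (-0.29 and -0.075), and for Mme there (-0.21 and -0.47, the second called at adjusted p = 0.0248, edgeR). In NOX4 against SS outer medulla they turned for Mme (-0.27 averaged, -0.30 at LS, -0.0042 at HS21), Enpep (-0.42 averaged, -0.48 at LS, -0.21 at HS21) and Ace (-0.25 at LS). With the score of segments 1 and 2 they turned for Atp6ap2 in cortex at LS (-0.011), Ace in outer medulla at LS (-0.048), and Agt and Mme in SS outer medulla at HS7 (-0.10 and -0.12). Mme there had -0.076 without the low-complexity libraries, and Ace in NOX4 against SS outer medulla at HS7 had 0.10 in limma voom.

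Over all genes tested, NOX4 against SS at HS21 called 152 genes in cortex with edgeR, 339 with DESeq2 and 2161 with limma voom. No member, Mme included, was among the 152. In outer medulla the same comparison called 258, 640 and 7461 genes, and Agtr1b was the only member among the 258. SS at HS7 against LS called 341, 910 and 6 in cortex and 374, 1434 and 2 in outer medulla, so calls at HS21 and for salt depend on the tool. With the segment 3 score the averaged strain comparison called 2421 genes in cortex (4812 without) and 1825 in outer medulla (4810 without).

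Same-numbered libraries did not deviate together: 4 of 30 pairs between cortex and outer medulla correlated over 0.1, and 9 of 30 cortex libraries matched their own number best. A replicate block lost 2 member calls, among them Agtr1b in outer medulla at HS21 (-0.98, edgeR, adjusted p = 0.0611), and gained 3; it gave 2 members for cortex salt and 3 over the diets in outer medulla. Mas1 had at most 19 counts in a library, which limits the precision of its values.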
